A study of Mus musculus with 6 samples.

Results

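Cells answer oxidative stress with a shared set of protective genes, and the 10 of them examined here were Nfe2l2, Hmox1, Nqo1, Slc7a11, Gclc, Gclm, Txnrd1, Srxn1, Sod2 and Gpx3. They were chosen by name, and each of the 10 symbols matched 1 of the 23420 genes of the deposited count table. The RNA came from whole mouse retinas in 6 libraries, 2 biological replicates of each of 3 groups. Control retinas came from untreated mice. The light-exposed group was taken 4 days after 1 h of bright light, 10000 lux by the sample labels. The minocycline group had the same light and daily intraperitoneal minocycline, a tetracycline antibiotic, at 45 mg/kg, for 4 days by the labels. In the paper, dosing began 1 day before the light, with 2 injections a day on the first 2 days and 1 a day afterwards. The labels give the strain as CD1, whereas the paper describes adult albino BALB/cJ mice of both sexes and a stronger light, and neither states a genetic modification. Whether the light-exposed mice without minocycline received a solvent injection is not given in the sources used here.

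The libraries held 15205930 to 22856922 counts. A count of 3 was set as the detection limit and equalled 0.131 to 0.214 CPM. CPM are counts divided by the library size, after scaling with the trimmed-mean factors of edgeR, and brought to a common total of 1e6. That limit covers counting error only. Every member lay above it in each library, the lowest value being 27 counts of Gpx3 in control 2. Control 1 alone held high counts of the female-specific RNA Xist, 77778, against 25 to 188 elsewhere, and 6 lens markers summed to 192 CPM in light-exposed replicate 1 and to at most 18.2 CPM in any other library. Both minocycline libraries carry the same column header and are called minocycline A and B.

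Nfe2l2 encodes NRF2, a transcription factor that KEAP1 binds and marks for degradation in unstressed cells. Oxidants and electrophiles modify KEAP1, NRF2 accumulates, pairs with small MAF proteins and binds the antioxidant response element of its target genes. Its targets make glutathione, reduce oxidized thiols and quinones and break down heme. In the retina, photoreceptors work under high oxygen tension and strong illumination, and oxidative injury is a recognised part of light damage. Sod2, a mitochondrial superoxide dismutase, and Gpx3, a secreted glutathione peroxidase, belong to the same line of defence but also answer to other regulators.

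To see which of these genes have the letters of its core near their start, the core of the antioxidant response element was searched in the 250 bases before each start site given by RefSeq (GRCm38.p6). The letters searched were TGACNNNGC and TGAGNNNGC, on both strands, and the AP-1 motif TGACTCA was searched beside them because it can lie inside the core. Windows were matched for 8 genes, 10 windows in all, since RefSeq gives Txnrd1 3 starts. Hmox1 and Gclc were not matched. A core was found in 5 of the 10 windows, which belonged to 5 of the 8 genes. Of all 32851 windows of this length, 23% held a core in either spelling (10.2% the first, 14.4% the second) and 4.46% held the AP-1 motif. The stretches below show each match with its surroundings, read 5′ to 3′ along the gene, with the match in capitals (a match on the opposite strand appears as its reverse complement).
Nfe2l2, 240 to 232 bases before the start, chr2:75704885-75704913, minus strand: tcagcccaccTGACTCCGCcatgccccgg
Slc7a11, 97 to 89 bases before the start, chr3:50443692-50443720, minus strand: taatgttggcGCTTTCTCAagctggagtt
Gclm, 134 to 126 bases before the start, chr3:122245413-122245441, plus strand: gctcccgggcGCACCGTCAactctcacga
Txnrd1, 92 to 84 bases before the start, chr10:82859104-82859132, plus strand: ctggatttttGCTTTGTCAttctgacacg
Srxn1, 158 to 150 bases before the start, chr2:152105356-152105384, plus strand: tctactgagaGCCGACTCAtcctctctgg
Srxn1, 45 to 37 bases before the start, chr2:152105469-152105497, plus strand: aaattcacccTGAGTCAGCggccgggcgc
Of these, the second match of Srxn1 also holds the AP-1 letters. The Txnrd1 match lies before an internal start, in the window chr10:82858956-82859205, whereas the window at the start of the annotated gene (chr10:82833701-82833950) held none. Of the 10 windows, 8 overlap exons of GENCODE transcripts, by 1 to 144 bases, with 144 in that of Nfe2l2, 79 in that of Txnrd1 with the match and 8 in that of Srxn1. The windows of Nqo1, Sod2 and Gpx3 held no core, which says only that these letters are not in these stretches. A match likewise shows only the letters, and binding of NRF2 was not measured.

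Slc7a11 and Gclm, both needed for glutathione, are shown with nearly their whole window, because each holds a single match and 1 of the pair, Slc7a11, passed the test after light. The Slc7a11 window (chr3:50443615-50443863, minus strand, 249 bases) leaves out the last base before the start, which GENCODE counts as exon; with it the GC content was 43.2%. The Gclm window (chr3:122245307-122245556, plus strand, 250 bases) had a GC content of 78.4%, against a median of 52.4% over all windows.
Slc7a11: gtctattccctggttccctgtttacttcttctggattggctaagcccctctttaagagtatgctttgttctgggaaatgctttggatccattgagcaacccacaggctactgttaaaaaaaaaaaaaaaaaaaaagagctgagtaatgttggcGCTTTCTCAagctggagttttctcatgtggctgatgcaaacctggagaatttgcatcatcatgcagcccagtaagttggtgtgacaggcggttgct
Gclm: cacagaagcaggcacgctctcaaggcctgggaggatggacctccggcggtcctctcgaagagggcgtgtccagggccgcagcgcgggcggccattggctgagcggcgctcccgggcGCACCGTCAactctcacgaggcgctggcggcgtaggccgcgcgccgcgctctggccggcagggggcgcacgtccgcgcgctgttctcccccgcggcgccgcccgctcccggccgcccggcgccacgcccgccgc

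In the undamaged retina, Srxn1, Gclc and Sod2 were the most abundant of the 10 transcripts per length of gene. Srxn1, which encodes sulfiredoxin, the enzyme that repairs overoxidized peroxiredoxins, stood at 20.7 ± 1.5 CPM per kb of exons in controls (SD, n = 2, as for all means below). Gclc, the catalytic subunit of the enzyme that starts glutathione synthesis, followed at 16.3 ± 0.965 CPM per kb. Sod2 was at 14.7 ± 1.59 CPM per kb, within the spread of Gclc. Txnrd1, the cytosolic thioredoxin reductase, and Nfe2l2 itself lay at 9.91 ± 1.31 and 9.31 ± 1.62 CPM per kb, which also overlapped. Hmox1, the heme-degrading enzyme, came next at 5.35 ± 0.536, and Gclm, the regulatory partner of Gclc, at 2.93 ± 0.184 CPM per kb. Nqo1 (quinone reductase), Gpx3 and Slc7a11 (the cystine transporter xCT) were lowest, at 1.62 ± 0.144, 1.51 ± 0.456 and 1.38 ± 0.346 CPM per kb, and could not be ordered beyond their spread. After light, Srxn1 still led at 24.3 ± 1.88 CPM per kb. With light and minocycline, the highest mean was that of Gpx3, at 21.7 CPM per kb, but its SD of 13.5 spanned those of Srxn1, Sod2 and Gclc. Exon lengths were those of the GENCODE M21 annotation and may differ from the gene models used in counting, so that only large differences between genes are meaningful.

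**Figure D1:**
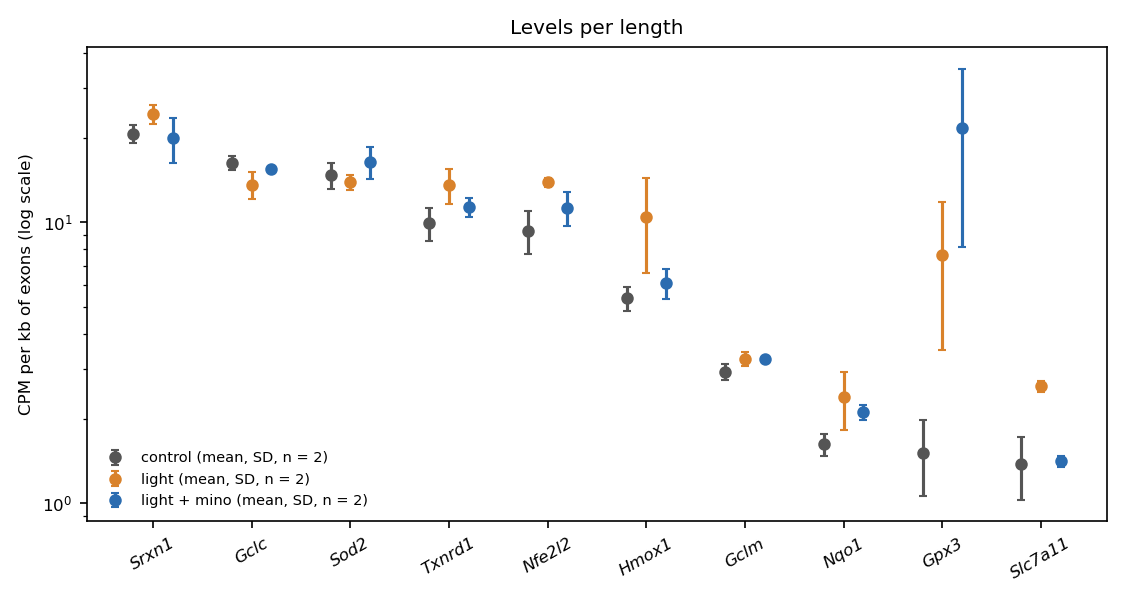
Level of each gene per kb of exons (CPM per kb, log scale) in control, light-exposed and light plus minocycline retinas; points are means and bars the SD of 2 libraries. Srxn1, Gclc and Sod2 stood highest in controls, and the mean of Gpx3 was 1.51 CPM per kb in controls and 21.7 with minocycline.

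The first comparison asked how light exposure changed these genes. Hmox1, Slc7a11 and Gpx3 rose after light, by 1.97-fold, 1.91-fold and 5.09-fold, whereas none of the 10 fell. In whole-tissue RNA, a different number of cells of a type and a different amount of RNA per cell cannot be told apart. These 3 genes passed an adjusted p of 0.05 in edgeR's quasi-likelihood test (Benjamini-Hochberg adjustment over 14349 genes). Of all genes tested, 7.52% passed upward and 3.80% downward. The log2 fold changes of the 10 genes had a median of 0.52, beside 0.0025 over all tested genes. Both light-exposed libraries lay above both controls for 8 of the 10 genes and below both for 1, Gclc. That arrangement was found in 30.1% of all tested genes upward and in 30.8% downward. At an unadjusted p under 0.05, 5 members were higher (Nfe2l2, Txnrd1 and the 3 above) and 0 lower, where 16.5% and 12.4% of all tested genes were.

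Nfe2l2 (chromosome 2, 75675513 to 75704641, GRCm38) had levels of 20.2 and 25.9 CPM in the controls, 33.4 and 35.2 CPM after light, and 30.6 and 25.1 CPM with minocycline. Both light-exposed values were above the other 4, and minocycline B lay between the controls. The difference after light was 0.58 on the log2 scale (standard error 0.18, 95% interval 0.18 to 0.98), with an adjusted p of 0.0611 in edgeR, above the threshold. The gene passed under 4 alternatives: total library size (adjusted p 0.0268 in edgeR), upper-quartile scaling (0.0421), no filter (0.0352) and the replicate number as a block (0.0237). The transcript encodes the regulator, whose activity is set mainly through the stability of the protein, which was not measured.

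Hmox1 (chromosome 8, 75093621 to 75100589) cleaves heme into biliverdin, iron and carbon monoxide and is the classical stress-induced target. It held 8.99 and 7.80 CPM in the controls, 12.1 and 20.7 CPM in light-exposed replicates 1 and 2, and 8.70 and 10.4 CPM with minocycline. Light-exposed replicate 2 was far above all others, while replicate 1 exceeded minocycline B by a small margin. Light raised it by 0.98 on the log2 scale, with a standard error of 0.28 (adjusted p 0.0489 in edgeR). The call was lost with DESeq2 size factors (adjusted p 0.0557 in edgeR), without robust estimation (0.0623) and when the fit took in all 6 libraries (0.066). It was also lost without control 1 (log2 fold change 1.07, adjusted p 0.146 in edgeR), without control 2 (0.88 and 0.245) and without light-exposed replicate 2 (0.54 and 0.556). In those fits few genes of any kind passed upward, 0.0269% without control 1, 0.135% without control 2 and 3.05% without light-exposed replicate 2. Nqo1 (chromosome 8, 107388225 to 107403206), which reduces quinones, was low throughout, with 2.36 and 2.67 CPM in controls, 3.09 and 4.31 CPM after light, and 3.41 and 3.12 CPM with minocycline. Its 33 to 91 counts per library left a wide 95% interval of -0.23 to 1.37 around a log2 fold change of 0.57 (adjusted p 0.336 in edgeR).

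Of the 3 genes that supply glutathione, the cystine transporter rose and the synthesizing enzyme did not pass. Slc7a11 (chromosome 3, 49892526 to 50443614) imports cystine in exchange for glutamate. Its level was 11.1 and 16.0 CPM in controls, 24.9 and 26.5 CPM after light, and 13.4 and 14.3 CPM with minocycline. The light-exposed libraries agree within 2 CPM and stand clear of the other 4, and both minocycline libraries lie between the controls. Light raised it by 0.93 on the log2 scale, with a standard error of 0.22 (adjusted p 0.0244 in edgeR). The call was lost without control 1 (log2 fold change 0.68, adjusted p 0.0929 in edgeR), without control 2 (1.21 and 0.0714) and without light-exposed replicate 2 (0.88 and 0.081), the fits in which 0.0269%, 0.135% and 3.05% of all genes passed upward.

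Gclc (chromosome 9, 77754535 to 77794485) had 58.0 and 53.4 CPM in controls, 43.0 and 50.2 CPM after light, and 52.7 and 53.6 CPM with minocycline. Both light-exposed libraries were the lowest, with a log2 fold change of -0.25 (95% interval -0.58 to 0.09, adjusted p 0.318 in edgeR). Gclm (chromosome 3, 122245557 to 122270732) varied little, from 15.7 to 19.0 CPM over the 6 libraries. Its log2 fold change after light was 0.16 (95% interval -0.27 to 0.59, adjusted p 0.62 in edgeR), an interval that excludes a doubling. Both windows printed above hold letters that match the core of the response element, and whether Slc7a11 and Gclm differ in their change was not tested.

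Of the thiol-repair enzymes neither passed, and both had higher values in both light-exposed libraries. Txnrd1 (chromosome 10, 82833951 to 82897712) had 36.6 and 44.1 CPM in controls, 49.8 and 60.9 CPM after light, and 43.5 and 48.8 CPM with minocycline. After light its log2 fold change was 0.46 (95% interval 0.10 to 0.83, adjusted p 0.0958 in edgeR), and it passed with total library size (0.0342) and with the replicate block (0.0466). Srxn1 (chromosome 2, 152105516 to 152111376) had 55.2 and 61.1 CPM in controls, 64.7 and 72.1 CPM after light, and 63.2 and 48.7 CPM with minocycline. Its log2 fold change after light was 0.24 (95% interval -0.08 to 0.57, adjusted p 0.308 in edgeR).

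Of the enzymes that remove superoxide and peroxide, Gpx3 rose and Sod2 did not pass. Sod2 (chromosome 17, 13006846 to 13040063), which converts superoxide in the mitochondrial matrix, had 92.9 and 79.8 CPM in controls, 85.1 and 77.7 CPM after light, and 105 and 87.2 CPM with minocycline. Control and light-exposed libraries overlapped, and the log2 fold change of -0.08 had a 95% interval of -0.40 to 0.25 (adjusted p 0.77 in edgeR). With total library size its sign turned, to 0.16, because that scaling moved the median of all genes to 0.24. Relative to that median the value was -0.08 under both scalings.

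Gpx3 (chromosome 11, 54902453 to 54910377) encodes the selenium-dependent peroxidase of plasma and extracellular fluid. It had 2.93 and 1.90 CPM in controls, 7.51 and 16.8 CPM after light, and 19.4 and 49.9 CPM with minocycline. The 3 groups did not overlap, and within both exposed groups the higher library was more than 2 times the lower. Light raised it by 2.35 on the log2 scale, with a standard error of 0.43 (adjusted p 0.0156 in edgeR), which made it the single member also past the study's fold cutoff of 2 on the log2 scale. The share of all tested genes past both thresholds was 2.89% upward and 0.0279% downward. The call was lost when the fit took in all 6 libraries (log2 fold change 2.35 again, adjusted p 0.0749 in edgeR), without control 1 (2.68 and 0.0891) and without control 2 (2.06 and 0.159). In these fits 5.57%, 0.0269% and 0.135% of all genes passed upward. Without light-exposed replicate 2 its log2 fold change was 1.65 (adjusted p 0.00827 in edgeR).

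**Figure D2:**
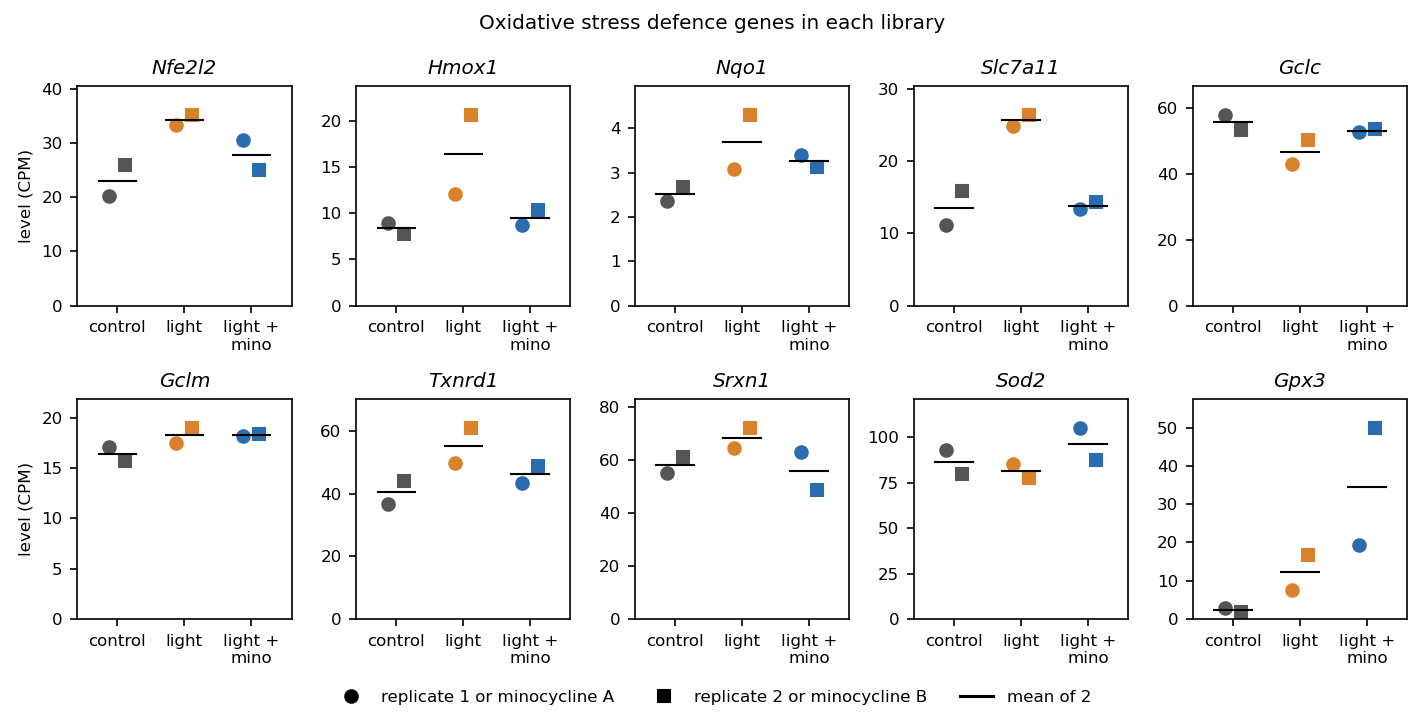
Level of each gene (CPM, axes from 0) in the 6 libraries; circles are replicate 1 or minocycline A, squares replicate 2 or minocycline B, and lines the mean of 2. Hmox1 and Slc7a11 stood highest in the light-exposed libraries, whereas Gpx3 was highest with minocycline, at 19.4 and 49.9 CPM.

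The second comparison asked how minocycline altered these genes in light-exposed retinas. None of the 10 passed the adjusted threshold in edgeR, and 3 had an unadjusted p under 0.05: Hmox1 and Slc7a11 were lower and Gpx3 was higher with minocycline. DESeq2 called 1 gene, Slc7a11 (lower), while calling 4.98% of all genes lower and 3.14% higher. Over all 14750 genes tested with edgeR, 0.0407% passed downward and 0.0136% upward, and at an unadjusted p under 0.05 the shares were 12.1% and 9.04%. Slc7a11 had a log2 fold change of -0.88 (standard error 0.17, 95% interval -1.26 to -0.49) and an adjusted p of 0.0698 in edgeR, which was 0.0049 in DESeq2 and 0.0241 without a filter in edgeR. For Hmox1 the log2 fold change was -0.77 (95% interval -1.47 to -0.08, adjusted p 0.196 in edgeR). Nfe2l2, Txnrd1 and Srxn1 had values of -0.29, -0.25 and -0.28, with adjusted p-values of 0.331, 0.401 and 0.355 in edgeR. For these 5 genes both minocycline libraries were below both light-exposed libraries, a pattern that held for 28.1% of all tested genes. Gclc, Sod2 and Gpx3 were the reverse, with both minocycline libraries higher, as were 26.8% of all tested genes. Gpx3 had a log2 fold change of 1.52 (95% interval 0.02 to 3.02, adjusted p 0.232 in edgeR), which was 0.66 without minocycline B. Gclm lay at 0.01 (95% interval -0.38 to 0.40) and Nqo1 at -0.17 (95% interval -0.97 to 0.63), with overlapping groups.

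The last comparison set minocycline-treated, light-exposed retinas against controls, to ask how near to the undamaged level the genes lay. None of the 10 passed in edgeR, 1 (Gpx3, higher) had an unadjusted p under 0.05, and DESeq2 called Gpx3 (higher), while calling 1.16% of all genes higher and 0.0282% lower. Over all 14181 genes, 0.162% passed upward and 0% downward in edgeR, and 5.39% and 1.62% had an unadjusted p under 0.05. For Slc7a11 the log2 fold change against control was 0.08 (95% interval -0.47 to 0.63), for Hmox1 0.23 (-0.35 to 0.80) and for Nfe2l2 0.32 (-0.14 to 0.77). These intervals exclude a doubling but not smaller differences. Gpx3 was 14.8-fold higher, a log2 fold change of 3.88 (standard error 0.56), with an adjusted p of 0.121 in edgeR that was 0.0353 without robust estimation. Without minocycline A its log2 fold change was 4.41, and without minocycline B it was 3.0. Both minocycline libraries were above both controls for Nqo1, Gclm and Gpx3 and below both for 0 members, where 15.5% and 24.5% of all tested genes had those orders. The comparisons share libraries, each pair of them having 1 group in common, so that their values are not independent.

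**Figure D3:**
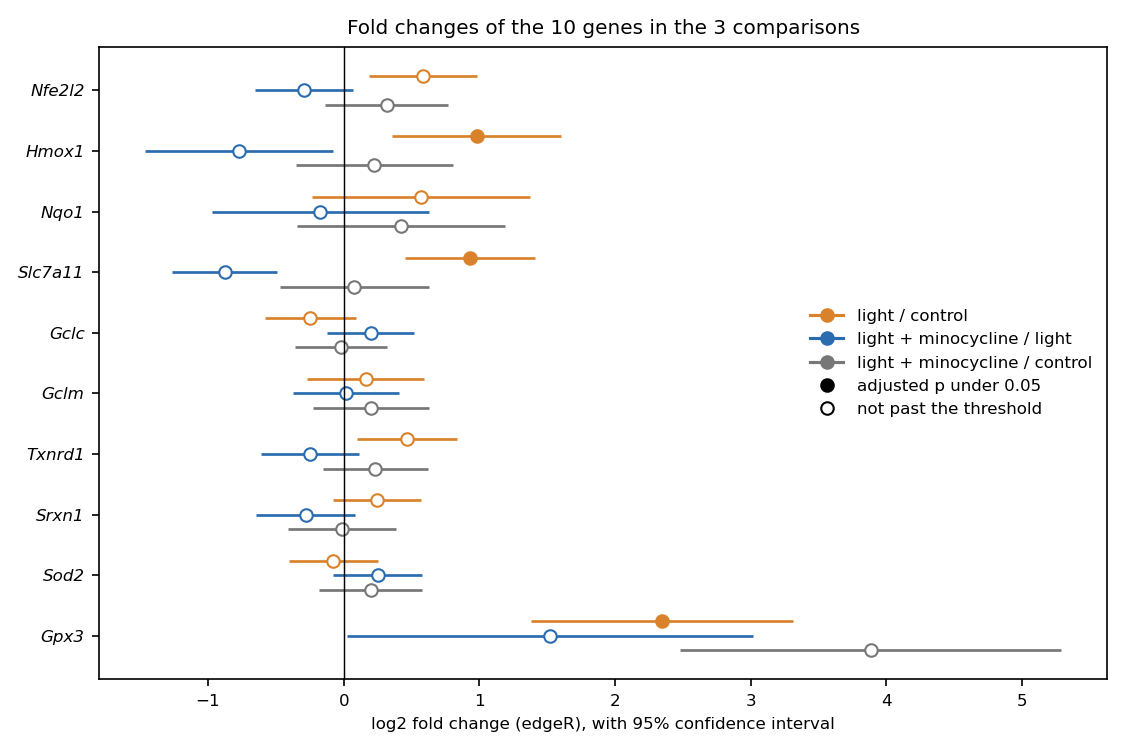
Log2 fold change of each gene (edgeR, points) with its 95% confidence interval (lines) in the 3 comparisons; filled points have an adjusted p under 0.05. Hmox1, Slc7a11 and Gpx3 passed after light, at 0.98, 0.93 and 2.35, and no gene passed in either comparison with minocycline.

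The wider pathway was then read from 8 lists with 70 other genes, of which 67 were tested after light. Of these, 8 rose, 0 fell and 59 did not pass the adjusted threshold in edgeR, where 7.52% of all tested genes passed upward and 3.80% downward. At an unadjusted p under 0.05, 23 were higher and 6 lower, beside 16.5% and 12.4% of all genes. DESeq2 called 12 higher and 2 lower, beside 8.01% and 5.34% of all genes. The median log2 fold change over the 67 genes was 0.25.

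Among 10 regulators of NRF2, Sqstm1 alone rose. It encodes p62, an autophagy adaptor that can sequester KEAP1. Its level was 76.3 and 54.3 CPM in controls, 98.4 and 117 CPM after light, and 126 and 84.4 CPM with minocycline, where the groups with and without treatment overlapped. The log2 fold change after light was 0.73 (adjusted p 0.0302 in edgeR), and with minocycline against light it was -0.02 (95% interval -0.50 to 0.45). The list as a whole had a median of -0.05 after light, with 4 of 10 genes above 0.

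Of 11 tested genes of glutathione synthesis and use, Gpx1 and Gpx8 rose. Gpx1, the ubiquitous cytosolic glutathione peroxidase, had 23.1 CPM in both controls, 34.6 and 55.2 CPM after light, and 30.6 and 27.8 CPM with minocycline (log2 fold change after light 0.97, adjusted p 0.0241 in edgeR). Gpx8, a peroxidase of the endoplasmic reticulum, went from 7.56 and 6.96 CPM to 17.5 and 26.1 CPM after light and stood at 10.9 and 11.0 CPM with minocycline. Its log2 fold change after light was 1.60 (adjusted p 0.00918 in edgeR), and that with minocycline against light was -0.99 (adjusted p 0.0864 in edgeR). Both genes had the light-exposed libraries above the other 4, unlike Gpx3, the secreted family member.

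Of 10 tested glutathione S-transferases, Gstm1 and Mgst1 rose. Mgst1, a membrane-bound transferase, had 3.50 and 3.30 CPM in controls, 10.9 and 19.2 CPM after light, and 10.0 and 22 CPM with minocycline. Its log2 fold changes were 2.16 after light (adjusted p 0.00851 in edgeR) and 0.10 with minocycline against light (95% interval -1.03 to 1.23), and the groups overlapped. Gstm1 had 9.85 and 8.01 CPM in controls, 13.5 and 20.1 CPM after light, and 12 and 10.5 CPM with minocycline (log2 fold change after light 0.92, adjusted p 0.0436 in edgeR). Mgst1 was the single pathway gene past the fold cutoff.

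Among 13 thioredoxin and peroxiredoxin genes, 3 peroxiredoxins rose, enzymes that reduce peroxides. Prdx6, which uses glutathione in place of thioredoxin as its reductant, went from 88.9 and 60.7 CPM to 135 and 210 CPM after light, with 122 and 88.7 CPM under minocycline (log2 fold change after light 1.22, adjusted p 0.0302 in edgeR). Prdx4, of the endoplasmic reticulum, went from 15.8 and 13.7 CPM to 24.8 and 32.1 CPM, with 15.2 and 15.4 CPM under minocycline (0.96, adjusted p 0.0196 in edgeR). Prdx1 went from 60.4 and 45.4 CPM to 76.9 and 113 CPM, with 71.4 and 65.1 CPM under minocycline (0.85, adjusted p 0.0343 in edgeR). For all 3, both light-exposed libraries exceeded the controls, and light-exposed replicate 2 was the highest library.

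No gene of the remaining 4 lists passed after light. In these, the genes with the largest changes were Sod3 (extracellular superoxide dismutase) with a log2 fold change of 0.90 and catalase (Cat) with 0.32, and Ftl1 (ferritin light chain) with 1.78 and Blvrb (biliverdin reductase B) with 1.00. Their adjusted p-values in edgeR were 0.116, 0.363, 0.0966 and 0.147. Ftl1 has near-identical copies in the mouse genome, and how reads shared between them were assigned is not stated. For NADPH supply they were Me1 (malic enzyme) at -0.42 and Tkt (transketolase) at 0.39, and for detoxification Osgin1 at 1.28 and Ephx1 (epoxide hydrolase) at 1.20. Their adjusted p-values in edgeR were 0.13, 0.253, 0.0979 and 0.0527. With minocycline, 0 of 67 pathway genes passed in either comparison in edgeR. At an unadjusted p under 0.05, 8 were higher and 8 lower against light, near the 9.04% and 12.1% of all genes, and 14 were higher and 1 lower against control, beside 5.39% and 1.62%. Of those 14 genes, 6 (Gsta3, Gsta4, Mgst1, Sod3, Abcc4 and Ephx1, named after their values were seen) were highest in minocycline B, the library with the highest corneal, pigment cell and smooth muscle marker sums (given further on for Gpx3), whose part in these counts was not tested. DESeq2 called 3 higher and 3 lower against light, near its 3.14% and 4.98% of all genes, and 4 higher and 0 lower against control, beside 1.16% and 0.0282%.

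**Figure D4:**
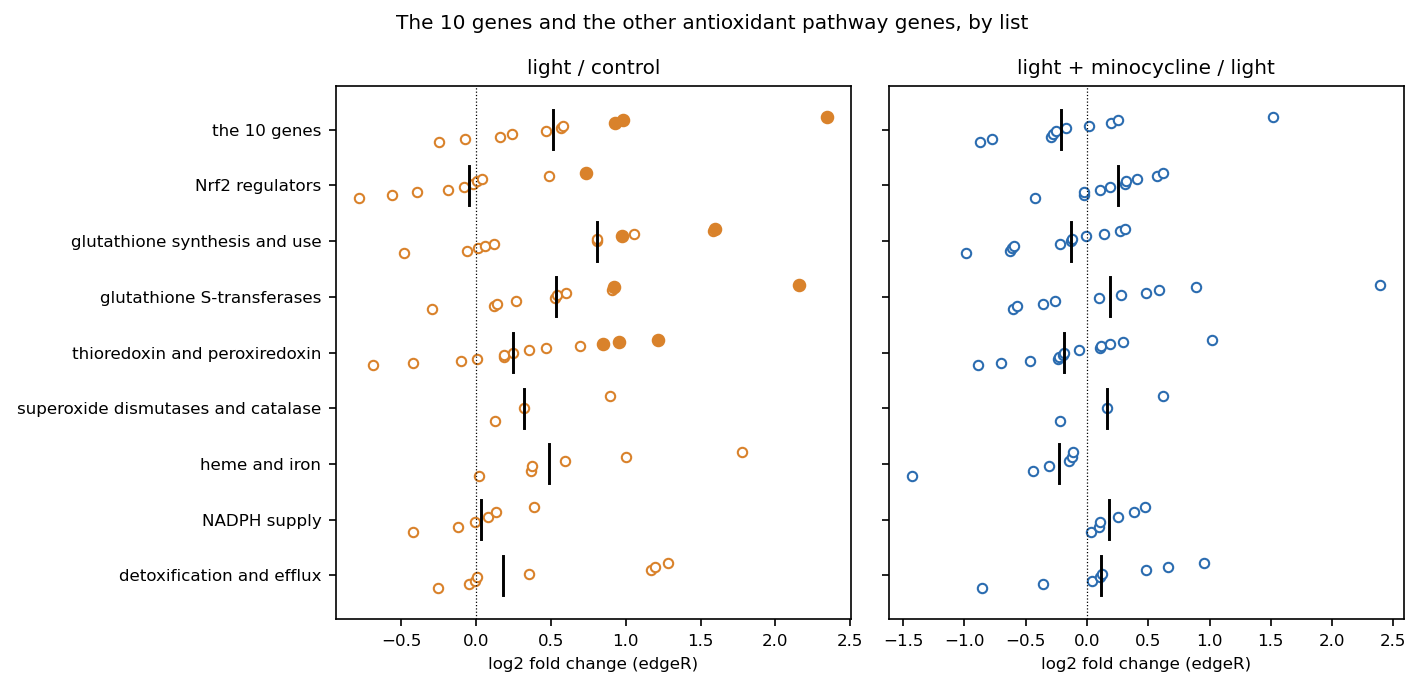
Log2 fold change (edgeR) of the 10 genes and of 8 lists of other antioxidant genes, after light against control (left) and with minocycline against light (right); each point is a gene, filled where the adjusted p was under 0.05, and black bars are list medians. After light, 3 of the 10 genes and 8 of 67 pathway genes passed, and with minocycline none did.

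The pattern over the 6 libraries was also compared between genes, by the root mean square difference of log2 CPM after centring each gene on its own mean. Among 13654 genes with a mean of at least 1 CPM, those nearest to Nfe2l2 were Fbxo6, Ptpla and Slc25a15, at distances of 0.0365, 0.0431 and 0.0503, where the median gene lay at 0.361. Those nearest to Hmox1 were Kif11, Mcm3 and Dpyd, at 0.0566, 0.0754 and 0.0758, with a median of 0.521. Of these 3, Kif11 (a spindle motor) and Mcm3 (a replication licensing factor) serve cell division, and whether Hmox1 is linked to it was not tested. This is a description over 6 libraries, with no test.

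Markers of several cell types differed between the same libraries. The 12 microglia and macrophage markers summed to 36.5 and 44.5 CPM in controls, 323 and 1037 CPM in light-exposed replicates 1 and 2, and 79.3 and 35.1 CPM with minocycline. All 12 had both light-exposed libraries above the controls, and 5 passed. Light-exposed replicate 2 was also the highest library for 7 of the 10 genes, all but Gclc, Sod2 and Gpx3, and for Gpx1, Gpx8, Gstm1 and the peroxiredoxins named above. Of the other pathway genes that passed, Sqstm1 was highest in minocycline A and Mgst1 in minocycline B. The share of all genes that were highest in light-exposed replicate 2 was not determined, so this count cannot be set against genes at large. All 8 rod markers were detected in every library, with both light-exposed libraries below both controls and a median log2 fold change of -0.87 after light, and 1 of them passed downward in edgeR. The 7 Müller glia markers summed to 1750 to 2670 CPM in controls, 2935 to 3308 CPM after light and 2495 to 3323 CPM with minocycline, a sum of which Glul made up the largest share. Of these 7, 2 rose after light (Vim 3.27-fold and Slc1a3 2.18-fold, adjusted p 0.0197 and 0.0124 in edgeR), 6 had both light-exposed libraries above both controls, and the median log2 fold change was 0.97. The part of these cell types in the results for the 10 genes was not tested.

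For Gpx3, markers from outside the neural retina are given as well. The 6 corneal epithelium markers summed to 10.2 and 2.25 CPM in controls, 6.47 and 16.1 CPM after light, and 200 and 278 CPM in minocycline A and B. The 6 pigment cell markers summed to 15.8 to 72.5 CPM in controls, 29.0 to 45.3 CPM after light, and 307 and 1384 CPM with minocycline. For the 5 smooth muscle markers these sums were 5.21 to 18.0, 8.91 to 9.48, and 65.8 and 325 CPM. Gpx3 was thus highest in the library where all 3 sums were highest, minocycline B. In the light-exposed libraries, the pigment cell and smooth muscle sums lay between those of control 1 and control 2, and the corneal sum was above both controls in replicate 2 and between them in replicate 1. The 7 retinal pigment epithelium markers ranged from 114 to 359 CPM and were highest in control 2. Lens markers summed to 192 CPM in light-exposed replicate 1 and 18.2 CPM in minocycline A, and to at most 1.96 CPM in the other 4 libraries. Of 5 red blood cell markers, 4 (globin genes) were at 0 counts in all libraries and the summed level was at most 1.80 CPM. Alas2 alone was detected, with up to 34 counts, in minocycline B. How reads shared between similar genes were assigned is not stated, so these zeros do not show that blood was absent. Vessel markers (6 genes) summed to 204 and 176 CPM in controls, 267 and 344 CPM after light, and 271 and 198 CPM with minocycline. Kdr and Flt1 made up the largest shares of these sums. After light, 1 of the 6 passed (Kdr, log2 fold change 0.87, adjusted p 0.0166 in edgeR), and 3 had both light-exposed libraries above both controls. The part of these tissues in the result for Gpx3 was not tested.

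**Figure D5:**
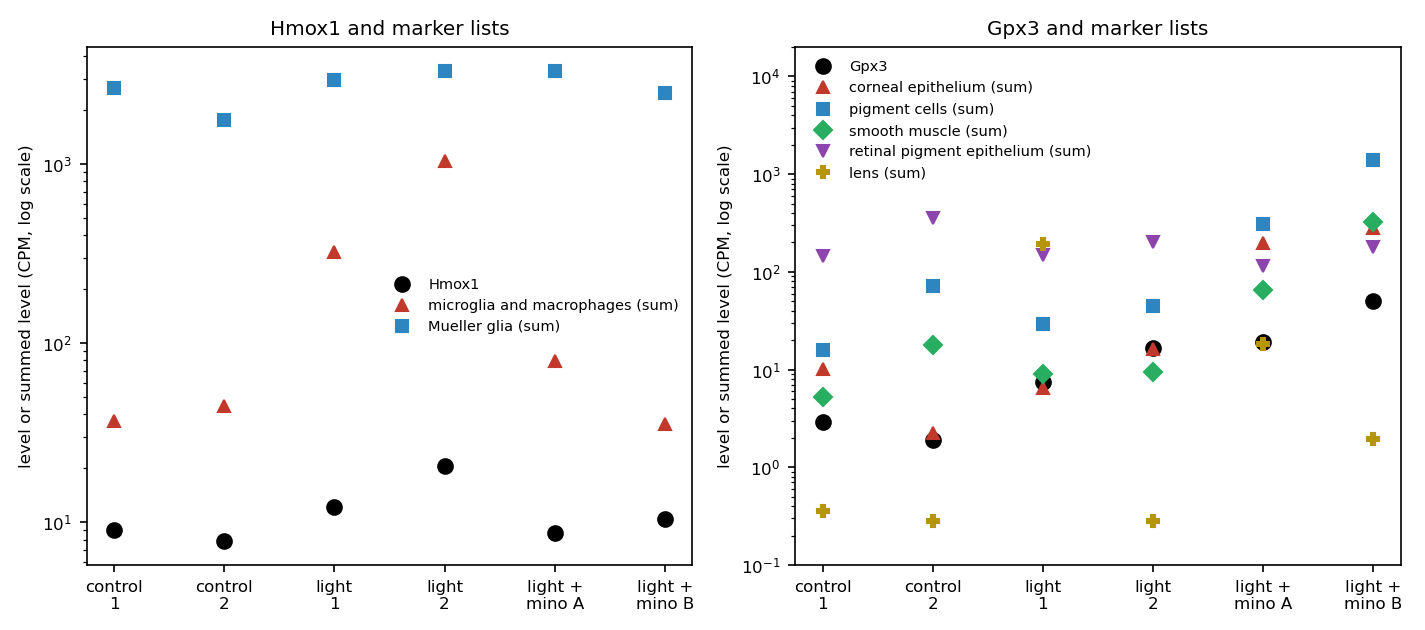
Levels of Hmox1 (left) and Gpx3 (right) beside the summed levels of marker lists in each library (CPM, log scale). Hmox1 and the microglia sum were highest in light-exposed replicate 2 (20.7 and 1037 CPM), and Gpx3 and the corneal, pigment cell and smooth muscle sums were highest in minocycline B.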

How the data were processed

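Single reads of stranded mRNA libraries were aligned by the authors to mm10 with STAR and assigned to genes in RNA Express, and counts per gene were deposited. Although the paper calls them normalized, the deposited counts are unscaled whole numbers for 23420 genes. Which gene models and which releases of STAR and RNA Express were used, and whether counting used strand, is not given in the sources used here. All value columns were used (0 left out).

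Each pair of groups was fitted on its own libraries with the quasi-likelihood test of edgeR 4.0.16 (R 4.3.3), after filterByExpr and TMM scaling, with robust estimation and Benjamini-Hochberg adjustment. A gene passed at an adjusted p under 0.05. The standard error is the log2 fold change divided by the root of F. Alternatives were DESeq2 1.42.0 without shrinkage, DESeq2 size factors, total library size, upper quartile, a minimum of 10 counts per library or no filter, no robust estimation, all 6 libraries in one fit, other thresholds, the replicate block, and each library left out. The code was tested on simulated data.

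Named were the 10 members, pathway genes that passed, otherwise the 2 with the largest change per list, and the 3 genes nearest to Nfe2l2 and Hmox1. The members and lists were chosen with earlier results of these data known. With 2 replicates per group, the spread of each gene comes from pairs of libraries, and edgeR draws it toward a trend fitted over all tested genes. The p-values and intervals rest on both. Intervals are at 95%.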

Additional observations from a re-analysis of the deposited data

How the results depend on the processing

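After light, 3 members passed in edgeR. The number was 5 with total library size (13.5% of all genes passed upward, against 7.52%), 1 with all 6 libraries in one fit (5.57%), 0 at an adjusted p under 0.01 (0.481% upward and 0.132% downward), 1 with the fold cutoff (2.89% and 0.0279%), and 0 to 3 with a library left out (0 without either control, 1 without light-exposed replicate 2). Few genes of any kind passed without a control, 0.0269% upward and 0% downward without control 1, and 0.135% and 0.249% without control 2. The lone library of a group was then assumed to vary like the others. The 8 pathway genes became 14 with DESeq2 (8.01% of all genes upward and 5.34% downward), 17 with total library size, 15 without a filter (8.01% and 4.54%), 2 at an adjusted p under 0.01, 1 with the fold cutoff, and 0 to 14 with a library left out (0 without either control, 4 higher and 1 lower, 5 in all, without light-exposed replicate 2, beside 3.05% and 0.372% of all genes, and 14 higher without light-exposed replicate 1, beside 11.4%). Of the 15 pathway genes without a filter, 13 were higher and 2 lower. With the replicate block, 5 members (5 higher and 0 lower) and 19 pathway genes (17 higher and 2 lower) passed, beside 11.6% of all genes upward and 5.97% downward. The labels do not say that control and light-exposed libraries of the same number are paired, and their deviations from the group means had a correlation of -0.00747 across genes. No paired analysis was possible with minocycline because both of its columns carry the same replicate number. With minocycline against light, 0 members passed, 1 with DESeq2 and 1 without a filter. The 0 pathway genes became 6 with DESeq2, 3 without a filter (1.34% of all genes upward and 2.63% downward), 2 in one fit (0.918% and 2.4%), and 0 to 4 with a library left out (4 lower without light-exposed replicate 1, beside 4.64% of all genes, and 1 higher without minocycline A, beside 1.24%). Against control, 0 members became 1 with DESeq2, 1 without robust estimation, and 0 to 1 with a library left out, and 0 pathway genes became 4 with DESeq2, 4 without a filter (1.01% of all genes upward), and 0 to 6 with a library left out (6 without minocycline A, 5 without minocycline B, where 2.82% and 3.04% of all genes passed upward).

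Of 400 log2 fold changes of members under alternatives, 358 kept their sign and their side of the threshold, 15 lost and 12 gained a call, and 15 changed sign. After light, Sod2 turned to 0.16 with total library size, and with a library left out it ran from -0.19 to 0.025 (without control 1). Against light, Gclm turned to -0.16 with total library size, -0.013 with upper quartile, -0.0037 in one fit, and with a library left out it ran from -0.054 (without light-exposed replicate 1) to 0.051, while Nqo1 ran from -0.40 to 0.073 (without light-exposed replicate 2). Against control, total library size gave 0.016 for Gclc and 0.031 for Srxn1, and with a library left out Slc7a11 ran from -0.17 (without control 1) to 0.37, Gclc from -0.080 to 0.026 (without control 1) and Srxn1 from -0.22 to 0.12 (without minocycline B). Total library size moved the median of all genes to 0.24 after light and to -0.17 with minocycline against light, and raised the share of higher genes among those passing after light from 66.4% to 93.6%.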
